A study of Mus musculus with 13 samples.

Results

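Gene expression at 6 months of age was compared between the frontal cortex of 5XFAD mice and that of wild-type mice, with 3 RNA-sequencing libraries against 4. These 7 libraries, chosen by genotype and age in their titles, are among 13 in the series. The other 6 libraries come from the same genotypes at 11 months and enter only the shared estimate of spread and the comparison of ages. 5XFAD mice carry human transgenes, APP among them, with mutations that cause familial Alzheimer's disease, driven by regulatory sequence of the mouse Thy1 gene, so that the human proteins are made mainly by neurons. The wild-type libraries are from the strain B6SJLF1/J, and the labels name the transgenic strain only as 5XFAD. They give no sex, litter or animal. Whether each library is a separate mouse is thus not stated, and p-values refer to library-to-library spread, some of which may be technical. The reads of the human transgenes were not analysed here.

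Amyloid plaques in this model are surrounded by microglia, the resident macrophages of the brain, and by astrocytes with swollen processes. Microglia sense lipid and amyloid through the receptor TREM2 and its signalling partner TYROBP, and near plaques they lose part of their resting programme and take on one rich in lysosomal, lipid and antigen-handling genes, often called disease-associated. Astrocytes answer injury with GFAP, an intermediate filament protein, and with secreted protease inhibitors. In RNA from whole tissue, more cells of a type and more RNA per cell cannot be told apart, and this holds for every cell-type gene below.

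Of 17483 genes with enough counts to test, 228 were higher in 5XFAD (1.3%) and 3 were lower (0.0172%) at an adjusted p under 0.05 in edgeR's quasi-likelihood test. All 228 genes had every 5XFAD library above every wild-type library, which was the case for 6.97% of the genes tested, with 5.07% the other way round. Their log2 fold changes ran from 0.29 to 6.67 with a median of 1.33, against a median of -0.01 over all genes tested. Of them, 18 reached a log2 change of 3, 29 lay between 2 and 3, 109 between 1 and 2, 56 between 0.5 and 1, and 16 below 0.5. By level in wild type, 45 of the called genes were at 0.1 to 1 CPM (counts scaled to library size), 101 at 1 to 10, 58 at 10 to 100 and 16 at 100 CPM or more. The 8 called genes under 0.1 CPM in wild type could pass the filter on low counts only through another group in which they were higher. Some called genes above that level shared this limit. Among them were Cst7, Itgax, Lilrb4a and Ccl4, at 18, 27, 14 and 19 counts over the 4 wild-type libraries. Protein-coding genes made up 223 of the 228.

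**Figure D1:**
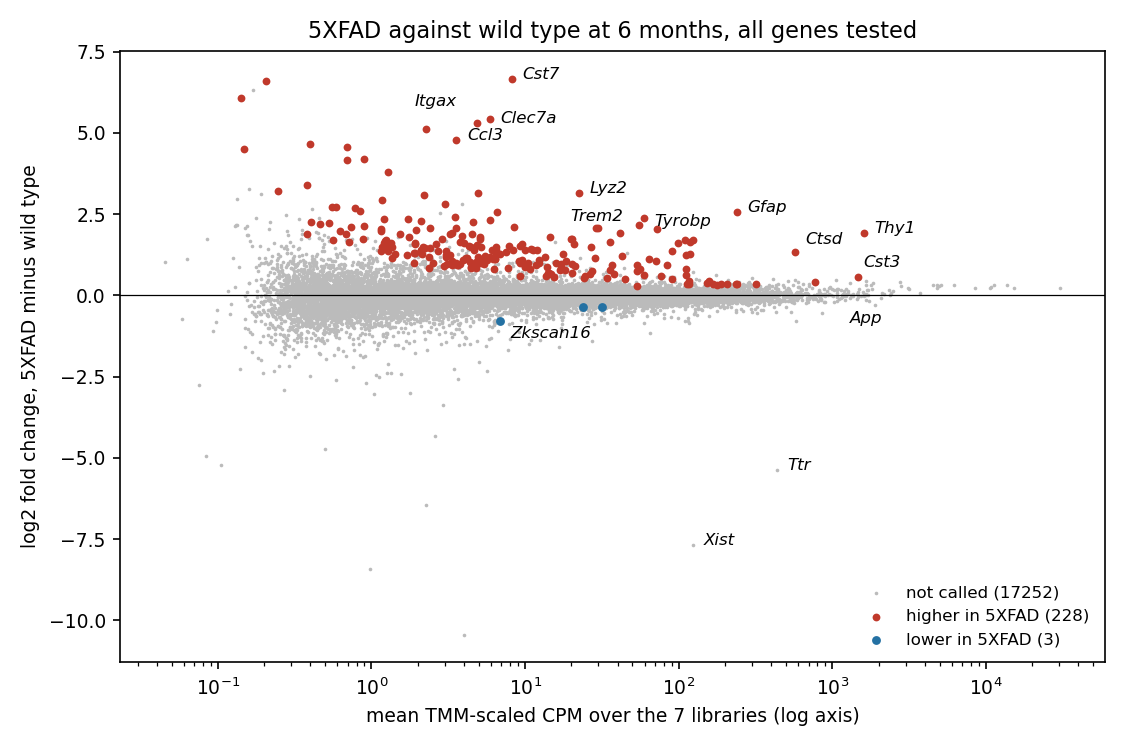
Each point is 1 of 17483 genes, with its mean level over the 7 libraries on a log axis (TMM-scaled CPM) and its log2 fold change, 5XFAD minus wild type, on the vertical axis; red points are the 228 genes called higher and blue points the 3 called lower. The called genes lie almost wholly above 0, and the genes far below 0 that are not called, such as Ttr and Xist, were high in only some of the wild-type libraries.

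The 7 libraries held 23684376 to 26216595 counts. They differed in the sex read from Xist, in myelin and other-tissue RNA, and in mitochondrial reads. The female transcript Xist was at 444.1 and 417 CPM in wild-type replicates 1 and 2 and at 3.23 CPM or less in the other 5 libraries, so 2 wild-type libraries read as female and all 5XFAD libraries as male. Wild-type replicate 1 held choroid plexus RNA: 13 markers of that tissue summed to 3017 CPM there and to 17.3 to 40.8 CPM elsewhere. Wild-type replicate 3 held more myelin and striatal RNA, with 17 myelin genes at 15040 CPM, against 7080 to 7343 in the other wild-type libraries and 10620 to 13050 in 5XFAD, and 12 striatal genes at 5132 CPM, against 1033 to 3998 elsewhere. Mitochondrial reads were 9.94% to 9.99% in 5XFAD and 8.38% to 8.88% in wild type. The groups did not overlap in this share, so it cannot be told apart from genotype. Without replicates 1 and 3 of wild type together, 149 genes were called higher and 3 lower, and with a term for sex 166 were called higher and 8 lower. Male libraries alone left 101 calls, all higher, of which 94 were among the 231. Each of the 231 genes kept its direction under all 17 other ways of processing that were tried. Since the groups did not overlap for any of these genes, that outcome was largely fixed beforehand. Of the 231, 79 stayed called under each of the 17, and 119 stayed called when any 1 of the 7 libraries was left out.

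The sequences just before the start sites of 4 of the genes that rose are shown as examples. The 4 genes encode a cystatin, a chemokine, a receptor and a protease. Each is the 250 bases before a RefSeq start site (GRCm38.p6), read 5' to 3' on the gene's strand, with capitals marking matches on either strand to the letters AGGAAGT or GAGGAA, which are related to the sites of the macrophage factor PU.1, or to TGANTCA, related to sites of bZIP factors. Cst7 lies at chr2:150570165-150570414 on the plus strand, Ccl6 at chr11:83593088-83593337 on the minus strand, Trem2 at chr17:48346151-48346400 on the plus strand and Ctss at chr3:95526536-95526785 on the plus strand.

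Cst7: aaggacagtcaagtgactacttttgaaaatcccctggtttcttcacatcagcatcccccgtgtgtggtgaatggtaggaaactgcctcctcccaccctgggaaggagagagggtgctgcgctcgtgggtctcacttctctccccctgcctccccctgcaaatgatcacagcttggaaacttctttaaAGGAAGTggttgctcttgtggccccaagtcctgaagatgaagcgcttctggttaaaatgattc

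Ccl6: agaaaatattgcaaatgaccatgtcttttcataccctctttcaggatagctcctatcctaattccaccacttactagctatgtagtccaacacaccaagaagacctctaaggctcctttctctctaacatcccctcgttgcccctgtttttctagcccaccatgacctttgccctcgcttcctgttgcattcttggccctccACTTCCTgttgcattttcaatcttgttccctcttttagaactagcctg

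Trem2: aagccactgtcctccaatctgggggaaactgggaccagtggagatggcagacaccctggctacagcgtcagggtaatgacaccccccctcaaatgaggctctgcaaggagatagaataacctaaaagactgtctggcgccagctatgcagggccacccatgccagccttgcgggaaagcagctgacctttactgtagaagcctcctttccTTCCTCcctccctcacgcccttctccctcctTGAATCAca

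Ctss: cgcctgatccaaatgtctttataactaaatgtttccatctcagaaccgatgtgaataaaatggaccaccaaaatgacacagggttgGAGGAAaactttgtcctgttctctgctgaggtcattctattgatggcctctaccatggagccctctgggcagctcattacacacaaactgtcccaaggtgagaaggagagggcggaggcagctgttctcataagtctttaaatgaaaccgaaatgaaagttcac

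The Cst7 and Ccl6 windows each hold 1 match to AGGAAGT, the Ctss window holds 1 match to GAGGAA, and the Trem2 window holds 1 match each to GAGGAA and TGANTCA. Among the 170 of the 228 genes with a promoter in the RefSeq table, 25.9% had AGGAAGT in at least 1 such window, against 8.34% of the 12491 tested genes with one. For GAGGAA the shares were 42.9% and 26.1%, and for TGANTCA 10% and 5.56%. The letters CACGTG, related to sites of the lysosomal factor TFEB, were in 7.65% and 9.37%. Over all 32851 windows of this length in the table, AGGAAGT was in 7.69%, GAGGAA in 23.3%, TGANTCA in 6.75% and CACGTG in 6.02%. AGGAAGT and GAGGAA can overlap in 1 stretch, and AGGAAGT was added to the search after sequences had been seen, so these shares describe letters and not bound sites.

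Thy1, the neuronal surface glycoprotein whose regulatory sequence drives the transgenes, was at 729.7, 748.3, 639.4 and 782.8 CPM in wild type and at 3143, 2492 and 2682 CPM in 5XFAD. The groups were far apart, with a log2 fold change of 1.93 ± 0.14 (SE) and an edgeR adjusted p of 5.27e-06. On the deposited length-scaled values the mean went from 1420 to 6777 TPM, a larger ratio than in counts (4.77 against 3.82). The transcript length that the authors' quantifier assigned to Thy1 differed too, at 905 to 973 bases in the wild-type libraries and 737 to 752 in 5XFAD, with no overlap. Counts assigned to Thy1 were not split between the mouse gene and any transgene transcript that holds Thy1 sequence. Whether the mouse gene itself changed was thus not tested. Mouse App, the gene of the amyloid precursor protein, did not pass the test: its mean was 1325 ± 92.4 CPM (SD, n = 4) in wild type and 1257 ± 82.6 (SD, n = 3) in 5XFAD, a log2 difference of -0.08 ± 0.10 (adjusted p = 0.88). None of the 13 genes of the APP family and the secretases passed, and their median log2 difference was 0.02. Bace1, the beta-secretase, averaged 85.9 CPM in wild type and 89.9 in 5XFAD.

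Genes of disease-associated microglia were higher in 5XFAD cortex. Of 30 genes listed for this state, all were tested and 20 rose, with a median log2 difference of 1.29 over the 30. The steepest was Cst7, which encodes cystatin F, an inhibitor of lysosomal cysteine proteases, on chromosome 2 (150570415 to 150578944, plus strand). Cst7 was at 0.164, 0, 0.233 and 0.327 CPM in wild type and at 16.7, 20.7 and 19.5 CPM in 5XFAD, a log2 fold change of 6.67 ± 0.32 (edgeR adjusted p = 3.27e-07). In wild type these levels were close to the detection limit, at 18 counts over 4 libraries against 1413 counts over the 3 5XFAD libraries. Clec7a, the beta-glucan receptor dectin-1, was at 0.194 to 0.41 CPM in wild type and at 7.51, 17.8 and 14.8 CPM in 5XFAD, a log2 change of 5.44 ± 0.39 (adjusted p = 7.91e-06). Itgax, the integrin CD11c, was at 0.1225 to 0.369 CPM in wild type and at 7.04, 13 and 13 CPM in 5XFAD, a log2 change of 5.31 ± 0.33 (adjusted p = 2.63e-06). In both Clec7a and Itgax replicate 1 was the lowest of the 5XFAD libraries, and still 18.3 and 19.1 times the highest wild-type library.

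Other members of the state were already expressed in wild-type cortex. Lyz2, lysozyme of myeloid cells, was at 4.47 to 5.86 CPM in wild type and at 43.5, 44.1 and 48.5 in 5XFAD (log2 change 3.14 ± 0.16, adjusted p = 3.27e-07). Ccl6, a chemokine of microglia, averaged 1.12 ± 0.389 CPM in wild type and 10 ± 2.33 in 5XFAD. Cd52, a small surface glycoprotein of leukocytes, averaged 2.09 ± 0.384 and 12.4 ± 0.344 CPM. Cd68, a membrane protein of macrophage lysosomes, averaged 12.2 ± 1.71 and 51.2 ± 7.47 CPM. For none of these did the libraries of the groups overlap. Smaller rises were called for Cd9, a tetraspanin (log2 1.11), Igf1, a growth factor (1.32), Cd63, another tetraspanin (0.74), Lgals3, the lectin galectin-3 (1.59), Csf1, the ligand of the microglial growth factor receptor (0.67), and Ch25h, which makes 25-hydroxycholesterol (1.88). The call of Ctsb was lost whichever of the 7 libraries was left out. Csf1 stayed called without only 1 of the 7, Ch25h without 2 and Lgals3 without 4. Of the 20 members 12, Cst7, Clec7a, Itgax, Lyz2, Trem2 and Tyrobp among them, stayed called under all 17 other settings.

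Several genes by which this state is often recognised did not pass at 6 months in edgeR, and some of these calls depended on the fit. Apoe, the lipid carrier of glia, was at 1607, 1268, 1617 and 1535 CPM in wild type and at 1626, 1773 and 2204 CPM in 5XFAD. The groups did not overlap, but the lowest 5XFAD library lay next to the highest wild-type library, and the log2 difference was 0.31 ± 0.14 (adjusted p = 0.541). Spp1, osteopontin, was at 4.79 to 11.1 CPM in wild type and 17.6, 12.7 and 17.1 in 5XFAD (log2 1.02 ± 0.27, adjusted p = 0.118, and 0.007 in DESeq2). Gpnmb, a lysosomal glycoprotein, was at 1.22 to 2.62 CPM in wild type and 3.06, 4.78 and 7.27 in 5XFAD (log2 1.5 ± 0.34, adjusted p = 0.0573, and 0.000518 in DESeq2). Axl, a receptor for dying cells, was at 31.3 to 34.6 and 45.4 to 55.7 CPM (log2 0.64 ± 0.15, adjusted p = 0.0523), just outside the threshold, and it passed in DESeq2 (adjusted p = 0.00438), with the 6-month libraries fitted alone (0.00347) and with gene length in the model (0.038). Lpl, lipoprotein lipase, overlapped between the groups, at 21.6 to 39.8 CPM in wild type and 34 to 43.7 in 5XFAD.

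Genes of resting microglia were also higher. Of 16 such genes 9 rose, none fell, and all 16 had a positive log2 difference, with a median of 0.92. Their summed level was 382.9 to 388.4 CPM in the 4 wild-type libraries and 733.9, 712.2 and 765.7 CPM in 5XFAD, so the wild-type libraries differed from each other by far less than from any 5XFAD library. Fcrls, a microglial Fc receptor-like protein, rose from 16.2 to 20.2 CPM to 62.2, 52 and 61.5 CPM (log2 1.64 ± 0.17, adjusted p = 0.000117). Olfml3, a secreted matrix protein, Aif1, the calcium-binding protein IBA1, Gpr34, a lysophospholipid receptor, and Cd33, a sialic acid receptor, had log2 changes of 1.14, 1.01, 0.93 and 0.95. Cx3cr1, the fractalkine receptor, was at 37.4 to 41.4 CPM in wild type and 72.4, 72.1 and 75.7 CPM in 5XFAD, with log2 0.92 ± 0.19 and an adjusted p of 0.0348. Csf1r, the growth factor receptor on which microglia depend, averaged 84.4 ± 2.81 and 147.2 ± 4.62 CPM, and P2ry13, a nucleotide receptor, 11.3 ± 1.29 and 18.3 ± 1.88 CPM.

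P2ry12 and Tmem119, both widely used to mark resting microglia, were among the 7 that did not pass. P2ry12, a nucleotide receptor of microglial processes, was at 24 to 27.3 CPM in wild type and 33.5, 44.8 and 42.6 in 5XFAD, and its log2 difference of 0.65 ± 0.19 did not pass (adjusted p = 0.173), but it was called with the 6-month libraries fitted alone (adjusted p = 0.0105) and in DESeq2 (0.0393). Tmem119 was at 22.1 to 27.1 and at 26.1 to 31.6 CPM, overlapping between the groups, with log2 0.28 ± 0.18 (adjusted p = 0.726). The count of 9 depended on the fit and the libraries: it was 13 with the 6-month libraries alone and in DESeq2, where Siglech, Selplg and Itgam passed besides P2ry12, and it was 4 without wild-type replicates 1 and 3, 4 to 6 when any 1 of the 7 libraries was left out, and 5 with a term for sex. Fcrls, Olfml3 and Aif1 stayed called under all 17 other settings. Cx3cr1, Csf1r and P2ry13 lost their calls whichever of the 7 libraries was left out.

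**Figure D2:**
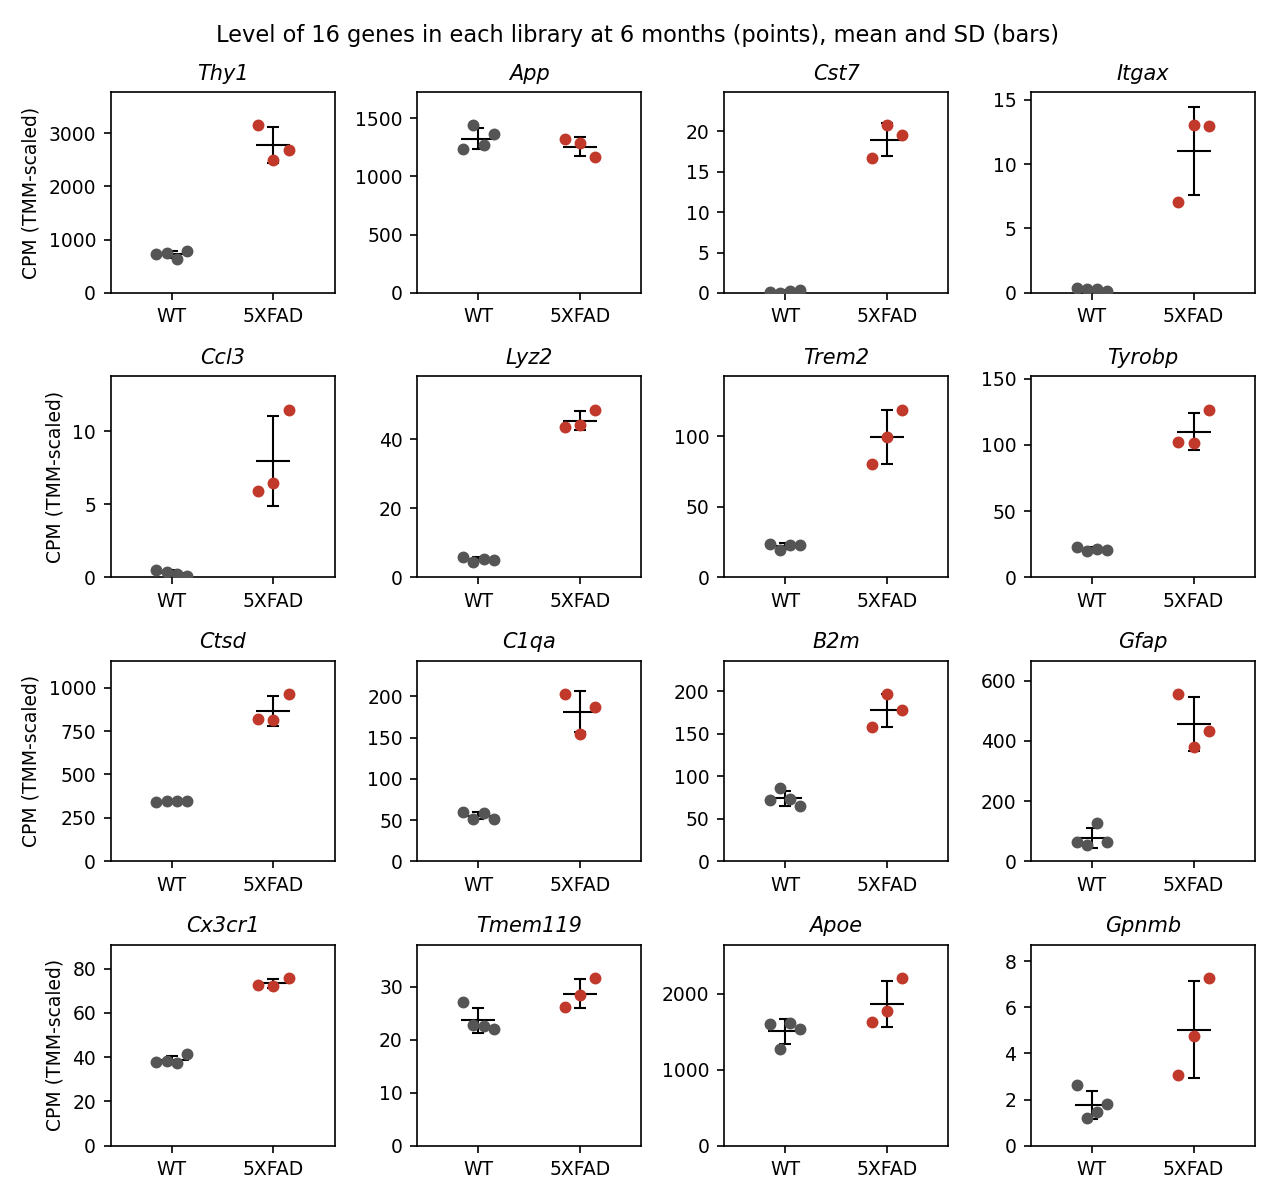
Levels of 16 genes in TMM-scaled CPM (vertical axis, starting at 0) in the 4 wild-type (grey) and 3 5XFAD (red) libraries; points are libraries, and the horizontal line and bars are the mean and SD. Cst7, Itgax and Ccl3 are near 0 in wild type, Trem2, Tyrobp, Ctsd, C1qa and Gfap are expressed there and separate fully, and App and Tmem119 overlap.

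The transcription factors that specify macrophages followed in part. Of 13 tested, 5 rose. Spi1, which encodes PU.1, was at 2.78 to 4.34 CPM in wild type and at 10.3, 8.84 and 9.13 in 5XFAD (log2 1.39 ± 0.20, adjusted p = 0.00181). Irf8 averaged 5.18 ± 0.583 and 15.4 ± 1.15 CPM, the largest change of the 5 at log2 1.57, and Cebpa 8.71 ± 0.995 and 17.3 ± 1.67 CPM. Irf5 and Runx1 were called with log2 changes of 0.95 and 1.44, and both calls were lost without some single libraries, which left 3 calls without wild-type replicate 2, 5XFAD replicate 1 or 5XFAD replicate 3. Sall1, a factor of resting microglia, averaged 15.4 ± 2.71 CPM in wild type and 19.5 ± 1.55 in 5XFAD (log2 0.34, adjusted p = 0.502).

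Trem2 itself, the lipid-sensing receptor, was at 23.3, 19.3, 22.7 and 23.1 CPM in wild type and at 79.9, 99.6 and 118.7 CPM in 5XFAD, a log2 change of 2.17 ± 0.22 (adjusted p = 0.000135). Its adaptor Tyrobp was at 19.6 to 23 CPM in wild type and 102.3, 101.5 and 126.6 in 5XFAD (log2 2.38 ± 0.15, adjusted p = 2.66e-06). The receptor and its adaptor thus moved by similar ratios, and the called kinases and lipid enzymes downstream had smaller log2 changes. Of 10 genes of the chain 6 rose: besides these, Vav1, a guanine nucleotide exchange factor (log2 1.17 ± 0.19), Btk, a Tec-family kinase (1.16), Pik3cg, a phosphoinositide kinase subunit (0.90), and Inpp5d, the inositol phosphatase SHIP1 (0.67). Plcg2, the phospholipase, averaged 3.55 ± 0.286 and 5.35 ± 0.235 CPM and did not pass (log2 0.59, adjusted p = 0.163). Syk, the kinase that TYROBP recruits, averaged 4.73 ± 0.592 and 5.9 ± 0.643 CPM and overlapped between the groups. The chain's count was 3 when any single library was left out, because Btk, Pik3cg and Inpp5d lost their calls, and 2 without wild-type replicates 1 and 3.

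Inhibitory receptors of myeloid cells rose alongside the activating ones. Of 12 tested, 8 rose, and the median log2 difference of the 12 was 1.74. Lilrb4a, Milr1 and Cd22 had only 14, 6 and 26 counts over the 4 wild-type libraries, and Pdcd1 was lower still than Cd22. These 4 could pass the filter on low counts only through another group in which they were higher. That lifts both the count and the median, so the list was not ranked against others. Lilrb4a, an immunoreceptor with inhibitory tails, was at 0 to 0.244 CPM in wild type and at 4.89, 4.48 and 5.98 in 5XFAD (log2 5.13 ± 0.39, adjusted p = 7.91e-06). Milr1, an inhibitory receptor known from mast cells, was at 0.0388 to 0.1225 CPM and 2.03, 1.23 and 1.32 CPM (log2 4.55 ± 0.54, adjusted p = 0.000241). Pdcd1, the checkpoint receptor PD-1, was at 0.041 CPM or less in wild type and 0.556, 1.14 and 0.971 in 5XFAD. Lag3, a further checkpoint receptor, was higher in level, at 6.05 to 8.74 and 22.5 to 26 CPM, and changed by log2 1.78. Cd22, Siglecf and Havcr2 had log2 changes of 2.60, 2.12 and 1.48, and Lair1, a collagen receptor, 0.81. Cd22 and Siglecf bind sialic acid, and Cd22 varied most among the 5XFAD libraries, at 0.994, 1.35 and 2.49 CPM. The low level of many of these genes bore on the count: only 4 of the 8 passed a filter of 1 CPM on the mean level and were called, and male libraries alone called 3.

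Fc receptors, which bind the constant part of antibodies, moved together. Of the 6 tested 5 rose, and the list summed to 42.1 to 50.1 CPM in wild type and 127.4, 107.6 and 110.8 in 5XFAD. Fcer1g, the shared signalling chain, averaged 10.2 ± 0.627 and 33.8 ± 2.44 CPM (log2 1.73 ± 0.13, adjusted p = 7.91e-06). Fcgr3 and Fcgr1 each changed by log2 1.48, Fcgr2b, the inhibitory member, by 2.11, and Fcgr4 by 2.19, though Fcgr4 stayed at 1.23 CPM or less and lost its call whichever library was left out. Fcgrt, the neonatal receptor that recycles antibodies in vessels and other cells, averaged 14.1 ± 2.26 and 14.9 ± 0.445 CPM and was not called (log2 0.08, adjusted p = 0.915).

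Among innate sensors 6 of 18 genes rose. Tlr2, a receptor for lipoproteins and aggregated amyloid, went from 0.572 to 0.983 CPM to 4.65, 3.38 and 3.46 CPM (log2 2.28 ± 0.22, adjusted p = 7.8e-05). Cd14, the co-receptor of several toll-like receptors, was at 1.72 to 2.79 CPM in wild type and 16.7, 7.57 and 8.55 in 5XFAD, and Ly86, an accessory protein of CD180, at 11.3 to 14 and 73.3, 42.3 and 44 CPM. For Cd14 and Ly86 the first 5XFAD library stood well above the other two. Cd180, Tlr1 and Tlr7 changed by log2 1.89, 1.66 and 1.36. Tlr4 averaged 0.465 ± 0.0929 and 0.826 ± 0.264 CPM and Nfkb1, an NF-kB subunit, 13.9 ± 1.95 and 14 ± 1.34 CPM, neither called.

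Of 17 chemokines and cytokines 5 rose. Ccl3, an inflammatory chemokine, was at 0.0817 to 0.491 CPM in wild type and 5.92, 6.47 and 11.5 in 5XFAD (log2 4.79 ± 0.42, adjusted p = 3.3e-05), and its neighbour Ccl4 at 0.0817 to 0.328 and 2.31, 2.88 and 2.99 CPM (log2 3.80 ± 0.45, adjusted p = 0.000293). Cxcl16, a membrane-bound chemokine and scavenger receptor, changed by log2 2.02. Ccl6 and the cytokine Csf1 (log2 0.67), both given above, were the other calls. Il1b and Il1a were low and uncalled. Il1b was at 0.041 to 0.233 CPM in wild type and 0.254 to 0.556 in 5XFAD (adjusted p = 0.614). Il1a averaged 0.657 ± 0.31 and 1.24 ± 0.173 CPM (adjusted p = 0.47).

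Complement genes of the classical pathway were among the larger gains in transcript number. C1qa was at 60.1, 51.3, 58.8 and 51.6 CPM in wild type and at 202.9, 154.1 and 186.7 in 5XFAD (log2 1.71 ± 0.14, adjusted p = 1.46e-05). C1qb and C1qc, which complete the initiating protein C1q, changed by log2 1.63 ± 0.16 and 1.6 ± 0.14, so the 3 chains rose by ratios that differed by less than their errors. C4b, a component cleaved downstream, was at 22.1 to 43.5 CPM in wild type and 144.3, 122 and 112.8 in 5XFAD (log2 2.03 ± 0.22). The receptors C3ar1 and C5ar1, for the anaphylatoxins, changed by log2 2.08 and 1.70, and Itgb2, the beta chain of complement receptor 3, by 1.51. In all 8 of 18 rose. C3, the central component, averaged 0.745 ± 0.373 CPM in wild type and 0.995 ± 0.307 in 5XFAD and was not called (adjusted p = 0.873), and Itgam, the alpha chain that pairs with Itgb2, missed the threshold at log2 0.96 ± 0.22 (adjusted p = 0.051). Phagocytic receptors gave 4 of 12: Cd68, Itgb2, Pros1, a bridging protein (log2 0.88), and Itgb5, an integrin chain (0.80). Mertk, a receptor for dying cells, averaged 23.5 ± 1.16 and 29.5 ± 2.7 CPM and was not called. Without wild-type replicate 2 the phagocytic count was 2.

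In antigen presentation, 4 of 17 class I genes and 4 of 11 class II genes rose. B2m, the light chain of class I, was at 64.6 to 85.8 CPM in wild type and 157.8, 196.9 and 178.5 in 5XFAD (log2 1.26 ± 0.16, adjusted p = 0.000473), and the heavy chains H2-D1 and H2-K1 changed by log2 1.06 and 0.94. Psmb8, an immunoproteasome subunit, changed by log2 1.13. For class II, the invariant chain Cd74 was at 1.83 to 3.6 CPM and 5.6, 9.77 and 9.83 CPM (log2 1.72 ± 0.27, adjusted p = 0.00342). The antigen-presenting chains in the list were not called in edgeR. H2-Ab1 reached log2 1.45 ± 0.35 (edgeR adjusted p = 0.0597, and 0.004 in DESeq2). H2-Aa overlapped at 0.528 to 2.46 and 1.47 to 2.28 CPM, and H2-Eb1 averaged 1.3 ± 0.497 and 1.2 ± 0.173 CPM. H2-DMb1, which helps load peptides, Cd86, a co-stimulator, and Ctss, the protease that trims the invariant chain, were the other class II calls, at log2 1.23, 1.35 and 1.69.

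Of 31 interferon-response genes 4 rose: Ifi27l2a, at 0.613 to 1.84 CPM in wild type and 4.37, 8.25 and 6.96 in 5XFAD (log2 2.42 ± 0.45, adjusted p = 0.0157), Ifi204, a DNA sensor family member (2.26), Bst2, tetherin (1.41), and Trim30a (1.30). The median of the 31 was 0.48, and DESeq2 and the 6-month libraries alone each called 7. When 1 of the 7 libraries was left out, Ifi204 stayed called in 6 of the fits, Ifi27l2a in 3 and Trim30a in 2. Bst2 lost its call whichever library was left out. None of the 4 was called without 5XFAD replicate 2 or without wild-type replicates 1 and 3 together. Irf7 and Ifit3 overlapped between the groups. Irf7 was at 2.46, 6.09 and 5.13 CPM in 5XFAD, with the first library inside the wild-type range of 2.38 to 3.8.

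Among lysosomal proteases and their inhibitors, 12 of 18 cathepsins and cystatins rose, with a median log2 difference of 0.50. Ctsd, the aspartic protease cathepsin D, was at 339.6, 345, 346 and 348 CPM in wild type and at 819.6, 811.3 and 963 CPM in 5XFAD (log2 1.33 ± 0.11, adjusted p = 1.47e-05). Ctss, a cysteine protease of microglia, was at 59.8 to 67 CPM in wild type and 209, 197.9 and 204 in 5XFAD, and Ctsz at 47.9 to 63.8 and 130.8 to 152.2 CPM (log2 1.36). Ctsh and Ctsc changed by log2 1.05 and 1.11, and Ctsl, Lgmn, Ctsa and Ctsb by 0.64, 0.45, 0.45 and 0.40. Ctse, an aspartic protease, had no count in any wild-type library and 36 counts over the 3 5XFAD libraries, at least 16-fold higher when 3 counts over the wild-type group are taken as the floor. Cst3, cystatin C, the most abundant of them, was at 1044 to 1354 CPM in wild type and 1839, 1688 and 1832 in 5XFAD, with log2 0.56 ± 0.12 and an adjusted p of 0.0299, and the call held in 6 of the 17 other settings. The count of 12 was 8 to 10 when any 1 library was left out, 7 without wild-type replicates 1 and 3, and 6 in male libraries alone.

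Other lysosomal genes were called in smaller numbers. Of 20 hydrolases 3 rose, among them Gusb (beta-glucuronidase, log2 0.95 ± 0.12) and Hexa (0.62 ± 0.09), all 3 under every other setting, and the list's median was 0.18. The count was 5 in DESeq2, with the 6-month libraries alone, with no filter on low counts and with gene length in the model. Of 18 membrane and transport genes 6 rose: Laptm5, a lysosomal protein of blood-lineage cells (log2 1.22), Cd68, Grn, progranulin (0.94), Cd63, Npc2, a cholesterol carrier (0.58), and Lamp2 (0.49). Psap, the precursor of the saposins, averaged 1460 ± 90.3 and 1468 ± 23.2 CPM, and Lamp1 298.1 ± 27.7 and 359.8 ± 6 CPM, neither called. In iron handling and the phagocyte oxidase 7 of 15 rose. Cybb, the catalytic subunit of the oxidase, was at 0.041 to 0.41 CPM in wild type and 1.31, 1.69 and 1.55 in 5XFAD (log2 2.69 ± 0.46, adjusted p = 0.00644), with Cyba (1.39), Ncf4 (1.49) and Ncf1 (0.98) of the same complex. Cyba stayed called under all 17 other settings. Ncf4 stayed called without only 1 of the 7 libraries, and Ncf1 lost its call whichever library was left out. Slc11a1, a metal transporter of phagosomes, changed by log2 1.79 ± 0.18, and Hmox1, heme oxygenase 1, by 0.81.

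**Figure D3:**
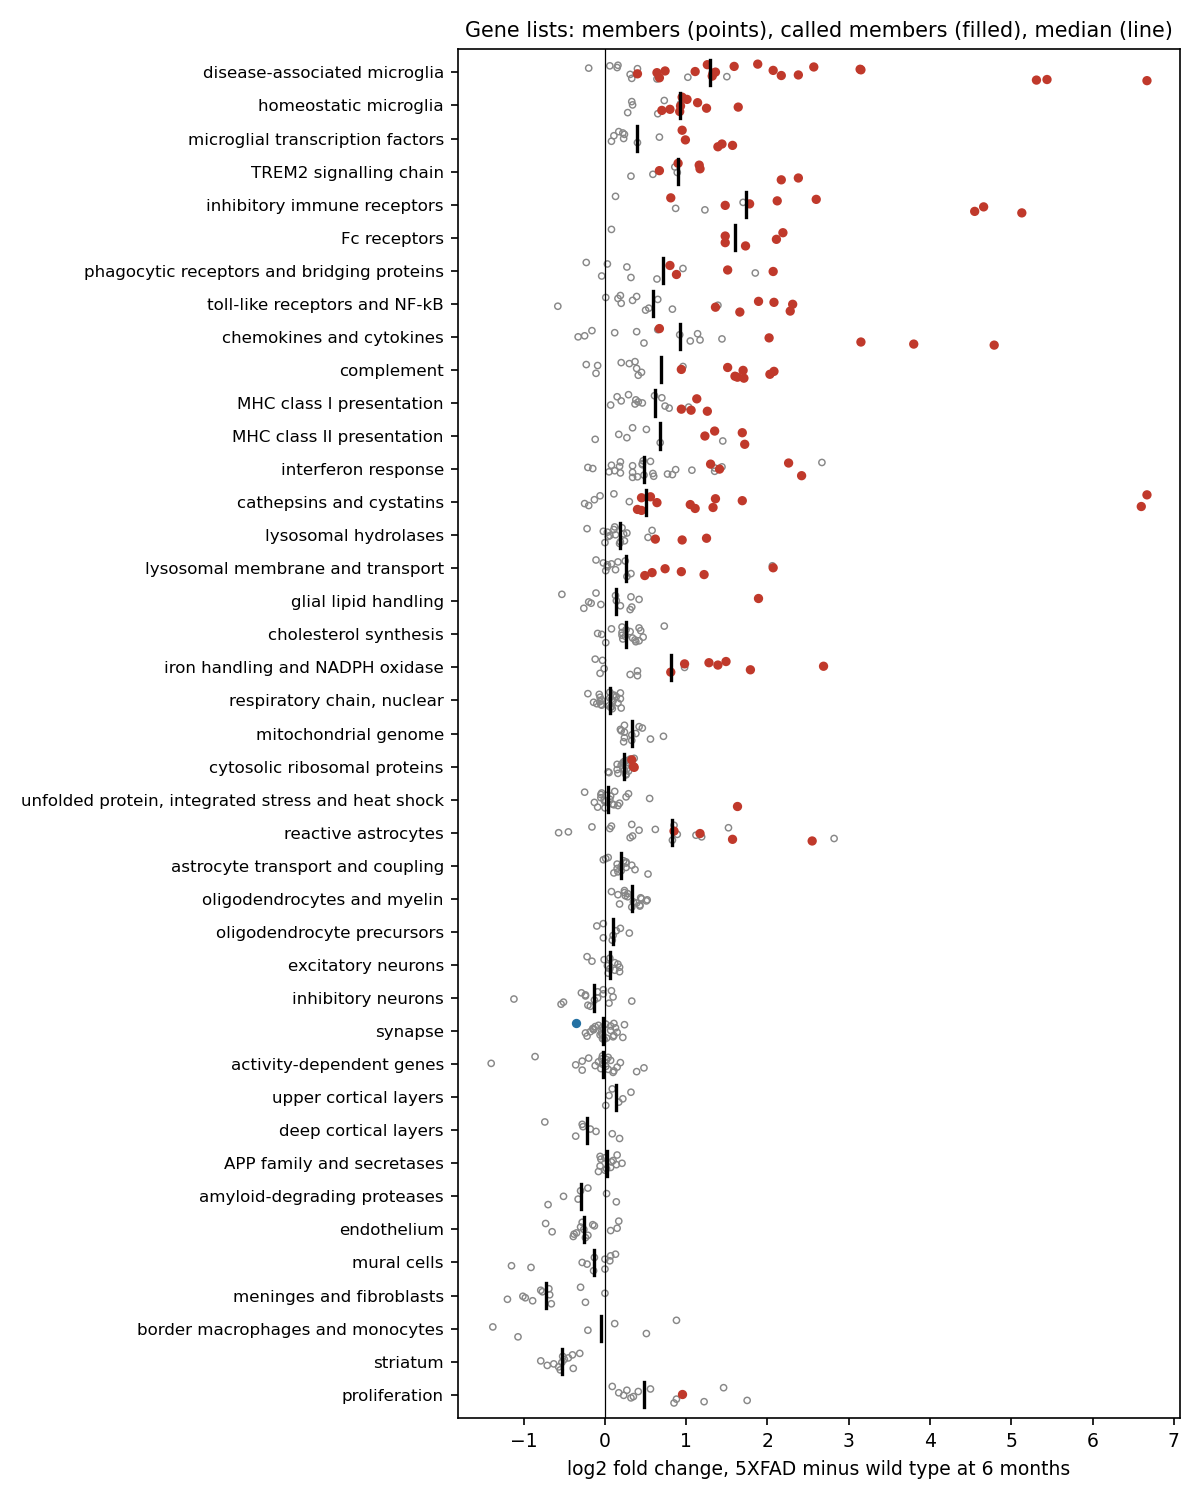
Each row is a gene list, each point a tested member at its log2 fold change (5XFAD minus wild type at 6 months), filled where called and open where not, and the black line is the median. Microglial, complement and protease lists reach far to the right with many filled points, while neuronal, vascular, striatal and respiratory-chain lists hold no gene called higher.

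Because sex and genotype were unbalanced, these counts were taken again in male libraries alone, with 2 wild-type libraries of this age. There 14 of the 30 disease-associated genes were called higher, 7 of the 16 genes of resting microglia, 6 of the complement genes, 4 of the Fc receptors and 3 of the reactive astrocyte genes below. With a term for sex the counts were 17, 5, 7, 4 and 4.

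Astrocyte genes gave a smaller set. Gfap was at 66, 54.1, 127.2 and 64.6 CPM in wild type and 555.6, 381 and 433.8 CPM in 5XFAD (log2 2.55 ± 0.26, adjusted p = 0.000189). Wild-type replicate 3, the library rich in myelin and striatal RNA, was the highest of its group and still far below the lowest 5XFAD library. Serpina3n, a secreted serine protease inhibitor, was at 9.95 to 12.6 CPM in wild type and 43.8, 25.2 and 31.4 in 5XFAD (log2 1.57 ± 0.15, adjusted p = 7.8e-05). Ggta1, a galactosyltransferase, and Srgn, a secretory proteoglycan, changed by log2 1.17 and 0.85, which made 4 of the 21 reactive genes tested. The list summed to 195.2 to 294.3 CPM in wild type and 836.7, 575.1 and 658.5 in 5XFAD. Vim, an intermediate filament protein, missed the threshold at 27.9 to 39.4 and 69.7, 43.9 and 61.7 CPM (log2 0.83 ± 0.21, adjusted p = 0.0887), and Osmr, the oncostatin M receptor, at log2 1.19 ± 0.27 (adjusted p = 0.0512). Without wild-type replicate 3 the count was 7, as it was in DESeq2. Lcn2, lipocalin 2, was at 22.5 CPM in the first 5XFAD library and at 0.169 and 0.311 CPM in the other 5XFAD libraries, with 0.205 to 2.91 CPM in wild type. None of 16 genes of astrocyte transport and coupling was called: Aqp4, the water channel, averaged 48.2 ± 1.66 and 69.5 ± 5.74 CPM (log2 0.53, adjusted p = 0.236), Slc1a2 1420 ± 70.8 and 1537 ± 38.6, and Slc1a3 271.6 ± 22.9 and 303.1 ± 10.9, the last 2 being the glutamate transporters.

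No neuronal gene in the lists rose, and 1 fell. Cacng8, an auxiliary subunit of AMPA receptors, was at 25.6, 26.4, 26 and 27.7 CPM in wild type and 19.7, 20.7 and 21.5 in 5XFAD (log2 -0.36 ± 0.08, adjusted p = 0.0447). The groups did not overlap, but the call was lost whichever of the 7 libraries was left out. The other 26 synapse genes were not called, and the list's median was -0.03, with Syp, synaptophysin, at 1548 ± 251 and 1538 ± 116 CPM and Snap25, a fusion protein, at 2925 ± 437 and 3397 ± 374 CPM. Excitatory markers were likewise uncalled: Slc17a7, the vesicular glutamate transporter, averaged 1204 ± 287 and 1235 ± 121 CPM and Camk2a 1720 ± 232 and 1951 ± 249 CPM. The 17 inhibitory markers had a median log2 difference of -0.13 and summed to 1605 to 1800 CPM in wild type and 1399 to 1517 in 5XFAD, with no overlap. Sst, somatostatin, was at 295.2 to 439.9 CPM and 234.6 to 254.1 CPM, with no overlap, and its log2 difference of -0.51 ± 0.20 did not pass (adjusted p = 0.439). The share of striatal RNA, which differed between these libraries by 12 markers at 1033 to 5132 CPM, was not tested as a part of that difference. Among 23 activity-dependent genes none was called. Fos averaged 32.5 ± 11.9 and 34.8 ± 10.2 CPM, and Arc was at 162.4 to 337.6 CPM in wild type and 229.9 to 243.1 in 5XFAD.

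The 2 remaining decreases were Zkscan16, a zinc finger gene, at 7.37 to 9.46 CPM in wild type and 4.45, 4.78 and 5.21 in 5XFAD (log2 -0.79 ± 0.17, adjusted p = 0.0404), and Lrrc24, a leucine-rich repeat gene, at 32.2 to 38.8 and 26 to 29.4 CPM (log2 -0.35 ± 0.08, adjusted p = 0.0467). Each of these calls stayed in only 1 of the 7 analyses that left out a library.

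Oligodendrocyte and vascular genes gave no calls. Mbp, myelin basic protein, was at 3603, 3588, 7613 and 3486 CPM in wild type and 6049, 5793 and 5349 in 5XFAD, so the myelin-rich wild-type library lay above and the other 3 below all 5XFAD libraries (log2 0.33 ± 0.28, adjusted p = 0.811). Of 15 endothelial, 11 mural and 12 meningeal genes none passed, with medians of -0.26, -0.13 and -0.73. Cldn5, a tight-junction protein, averaged 19.2 ± 0.951 and 16.3 ± 0.742 CPM (adjusted p = 0.803). Markers of border macrophages and neutrophils were near 0. The border macrophage genes Mrc1, the mannose receptor, Cd163, a hemoglobin scavenger receptor, and Pf4, platelet factor 4, stayed at means of 0.93 CPM or less and were not called, and 12 border macrophage and monocyte genes summed to 2.04 to 3.56 CPM in wild type and 2.1 to 2.54 in 5XFAD. S100a9, the only neutrophil gene tested, averaged 0.362 ± 0.19 and 0.65 ± 0.554 CPM. Of 15 T and B lymphocyte genes 4 were tested and none was called. That list summed to 52.7 to 92.9 CPM in wild type and 40.9 to 74.4 in 5XFAD, nearly all of it from Cd4, at 27.1 to 67.7 and 10.5 to 47.3 CPM, and Trbc2, a T cell receptor constant gene, at 13.1 to 28.3 and 24.2 to 30.7 CPM, while Cd3e, Cd3d, Cd3g and Cd8a were below the count filter.

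**Figure D4:**
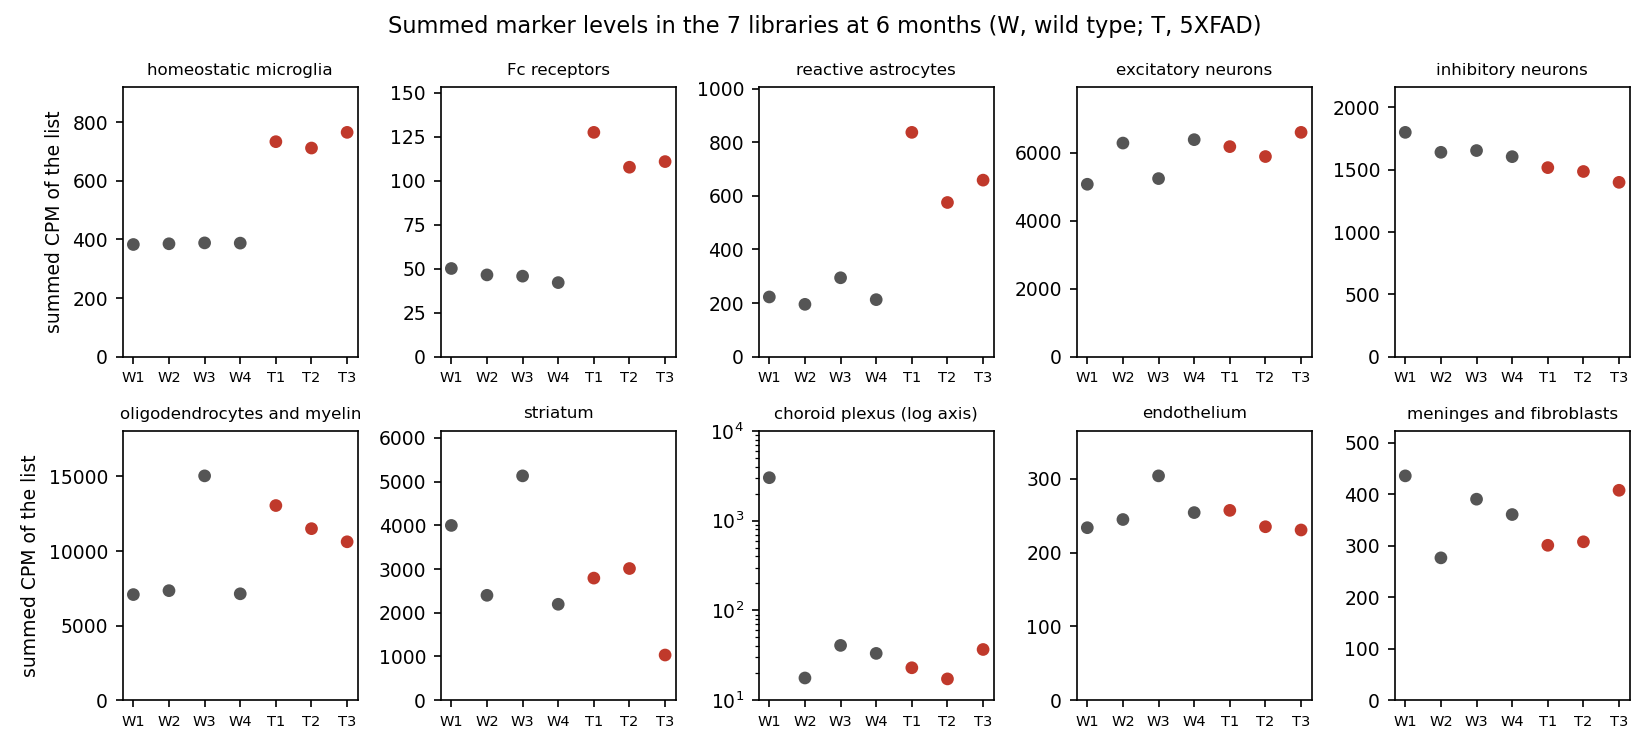
Summed CPM of 10 marker lists (vertical axes, starting at 0 except the log axis for choroid plexus) in wild-type libraries W1 to W4 and 5XFAD libraries T1 to T3. Homeostatic microglia, Fc receptors and reactive astrocytes separate by genotype, whereas choroid plexus is high in W1 and myelin and striatum are highest in W3.

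Ribosomal and mitochondrial genes had small positive differences, most of which did not pass. Of 23 cytosolic ribosomal protein genes in the list, all had a positive log2 difference, 3 passed (Rpl32, Rpl23 and Rps20) and the median was 0.24, and DESeq2 called 10. Outside the list 7 more ribosomal protein genes were called. Rpl39, chosen after its values were seen, had the largest change, from 69 to 82.3 CPM in wild type to 113.4, 99.6 and 109.1 in 5XFAD (log2 0.49 ± 0.08, adjusted p = 0.00629), and stayed called in 14 of 17 other settings, and Rpl36a, Rpl12 and Rpl30 changed by 0.35, 0.36 and 0.35. Rpl38 was at 121 to 141.5 CPM in wild type and 180.6, 164.3 and 178.4 in 5XFAD (log2 0.37 ± 0.08, adjusted p = 0.0467), with Rps25 and Rpl35a each at log2 0.36. The libraries also differed in how levels followed transcript length: relative to the mean of the 13 libraries, the log2 level changed with each doubling of gene length by -0.052 to -0.089 in 5XFAD and, in wild type, by -0.048 to 0.015. With gene length in the model the log2 differences were 0.21 for Rpl32 (adjusted p = 0.385), 0.30 for Rpl23 (0.0542) and 0.28 for Rps20 (0.0849), so none of the 3 listed genes was called, and Rpl38, Rps25 and Rpl35a had adjusted p values of 0.418, 0.216 and 0.318. The 13 protein genes of the mitochondrial genome were all positive, none passed in edgeR (3 did in DESeq2 and 3 with the 6-month libraries alone), and their median was 0.33, while 24 nuclear respiratory-chain genes had a median of 0.06 and no call.

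In TPM, the deposited length-scaled values, the gains were concentrated in few genes. The summed gain of the 228 genes was 10870 TPM. Of this gain, 5357 was assigned to Thy1, not split from any transgene transcript. Cst3 gave 896.8, Ctsd 321.2, Tyrobp 309.4, Rpl38 193.5, Gfap 193.1, B2m 191.6, C1qa 186.4, C1qb 181.6, Rps25 160.8, Ctss 149.8 and Rpl35a 148.8. Among these 12 genes Thy1, Ctsd, Tyrobp, Gfap, B2m, C1qa, C1qb and Ctss stayed called under all 17 other settings.

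Of the genes that human genetics has tied to Alzheimer's disease, 8 of 25 tested rose: Trem2, Spi1, Inpp5d, Cd33, Grn, Ctsb, Abi3, an actin regulator (log2 0.70), and Ms4a6d, a member of the Ms4a cluster (1.36).  Trem2 and Spi1 stayed called under every other setting, and the count was 2 to 4 when any 1 library was left out. Clu, clusterin, averaged 640.6 ± 57.8 and 788.6 ± 73 CPM without overlap and was not called (log2 0.30, adjusted p = 0.485).

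The same genes were measured at 11 months in separate libraries, 3 of each genotype. Of the 228 genes higher at 6 months, 218 were also called higher at 11 months and 206 had the larger log2 change there. The same shares over all 17483 genes were not counted, so these counts do not set the 228 genes apart. The balance of the sexes also differed between the ages. At 11 months Xist was at 433.3 and 427.6 CPM in 5XFAD replicates 1 and 3 and at 526.5 CPM in wild-type replicate 1. The other libraries of that age were at 3.37 CPM or less and read as male, as did all 5XFAD libraries at 6 months. Age and sex were thus not separated in these counts. Tested as a difference of differences, a single gene passed of 17483 (0.00572%): Serpina3n, whose change of 1.57 at 6 months was 3.71 at 11 months, a difference of 2.13. Serpina3n was also the only gene called in that test with a term for sex. For the others the difference between ages was not past the threshold, although 692 genes had an unadjusted p under 0.05 and DESeq2 called 30. Cst7 changed by log2 6.67 at 6 months and 7.73 at 11 months, Trem2 by 2.17 and 3.06, Gfap by 2.55 and 3.49, and Thy1 by 1.93 and 2.29. Genes that had not passed at 6 months did so later, among them Gpnmb (log2 1.5, then 4.38), Spp1 (1.02, then 3.03), Cxcl10, an interferon-induced chemokine (1.44, then 4.42), and H2-Aa (0.68, then 3.01), each without a called difference between ages in edgeR. DESeq2 called that difference for Gpnmb, Spp1 and H2-Aa.

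**Figure D5:**
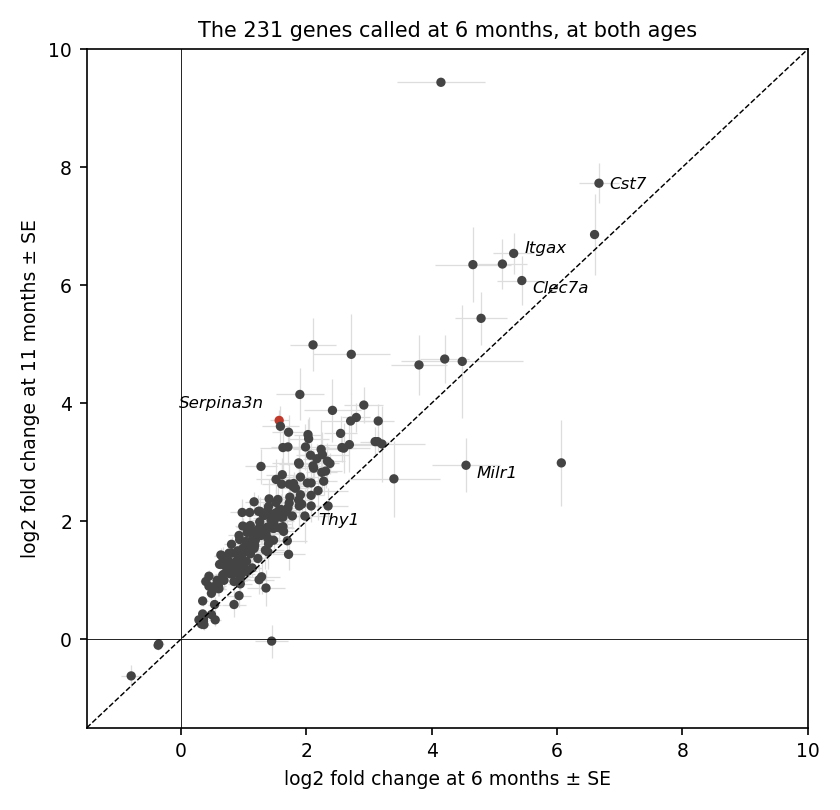
Each point is 1 of the 231 genes called at 6 months, with its log2 fold change (5XFAD minus wild type) at 6 months on the horizontal and at 11 months on the vertical axis; grey bars are SE, left out where a group is at 0 or the SE is over 2, and the dashed line marks equal change. Of the 228 genes called higher 206 lie above the line. The same share over all genes tested was not counted, and the balance of the sexes differed between the ages. Serpina3n, in red, is the only gene with a called difference between the ages.

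The 3 5XFAD libraries did not rank alike over genes. Among the 228 genes called higher, replicate 1 held the highest 5XFAD level for 89, replicate 2 for 41 and replicate 3 for 98, and the lowest for 90, 98 and 40. The ratio of the highest to the lowest 5XFAD library had a median of 1.25 over the 228 genes and passed 2 in 14. Replicate 3 was the highest for Trem2, Tyrobp, Ctsd and Cd22, while replicate 1 was the highest for Gfap, Serpina3n, C4b, Cd14 and Ly86 and the lowest for Clec7a, Itgax and Trem2.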

How the data were processed

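Libraries were sequenced on an Illumina instrument. Per the submitters' processing notes, the authors used STAR 2.7.1 for alignment and RSEM for quantification on GRCm38; the RSEM version, annotation and strand setting are not stated there. The authors made the expected counts with RSEM, which shares ambiguous reads among genes, and these are the deposited values tested here, with 7.24% to 7.71% of them not whole. The deposited TPM values are the authors' levels scaled by transcript length, and the deposited length of each gene was used as given. All 55536 gene identifiers matched GENCODE M21 of GRCm38, the source of symbols and coordinates. Groups came from titles, and replicates were numbered in accession order.

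Expected counts were rounded, filtered with filterByExpr (minimum count 10, minimum total 15), scaled by TMM, and fitted in edgeR 4.0.16 (R 4.3.3) with 4 group means over 13 libraries. The quasi-likelihood test compared 5XFAD with wild type at 6 months and that effect with the one at 11 months, with Benjamini-Hochberg adjustment over all 17483 genes. SE is the size of the unshrunken log2 fold change over the square root of F, and is not given where a group is at 0. A fold against 0 uses a floor of 3 counts over the group, which covers counting error only. Alternatives were RLE scaling, DESeq2 1.42.0, other filters, 6-month libraries alone, a sex term, male libraries alone, limma 3.58.1 on log2(TPM + 1) and log2(TPM + 0.1), a gene length offset, and leaving out each library. The code was tested on simulated data.

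The comparison and the gene lists were chosen with earlier results of these data known. Named genes were Thy1 and App, the 20 largest increases and all decreases among called genes that reached 1 CPM on average in 1 group and whose libraries did not overlap, the 12 largest gains in TPM, and list members, the called ones by smallest p. Unnamed gene models and pseudogenes were skipped; Clec7a, which GENCODE M21 types as a polymorphic pseudogene, is named as a list member. Lcn2, Osmr, Vim and other members that did not pass were picked after their values were seen. Genes with near copies or overlapping neighbours, such as Lilrb4a, Lyz2, Ccl3, Ccl4, C4b, Bcl2a1b and the H2 genes, are uncertain where reads were shared. Some list members count in the totals of their lists and are not reported here by name.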

Additional observations from a re-analysis of the deposited data

Results flagged for a closer look

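In wild type at 6 months, 7 of 84 sets of 4 values held a library further from the rest than Dixon's critical value allows; chance gives about 1 set in 20. Replicate 3 had 127.2 CPM of Gfap, against 54.1 to 66 CPM in the others, a summed level of 15040 CPM for oligodendrocytes and myelin, against 7080 to 7343, a sum of 7032 CPM for disease-associated microglia, against 5441 to 5711, and a sum of 4103 CPM for iron handling and NADPH oxidase, against 2730 to 2832. The last 2 sums hold Fth1, ferritin heavy chain, at 3412 CPM in that library and 2054 to 2177 in the others. Replicate 1 had a sum of 3017 CPM for choroid plexus, against 17.7 to 40.8, and of 310.2 CPM for red blood cells, against 165 to 170.3. Replicate 4 had 0.1225 CPM of Milr1, against 0.0388 to 0.041. Serpina3n stood out between the ages, its genotype effect being larger at 11 months by 2.13 on the log2 scale (1.57 at 6 months and 3.71 at 11 months).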

How the results depend on the processing

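At 6 months 231 genes were called, 228 higher and 3 lower. DESeq2 called 381, 345 higher and 36 lower; male libraries alone 101, 101 and 0; 6-month libraries alone 261, with 11 lower; a sex term 174, with 8 lower; and a gene length offset 227, with 5 lower. On log2(TPM + 1) limma called 137 higher and 34 lower and on log2(TPM + 0.1) 148 and 50, so that the higher share went from 98.7% to 80.1% and 74.7%, with a median over all genes of -0.107 and -0.133. The TPM values are relative to transcript length, and the cause of the shift was not tested. Leaving out 1 library gave 134 to 205 calls, 133 to 203 higher and 0 to 2 lower. Leaving out wild-type replicates 1 and 3 together, chosen after seeing the data, gave 152 calls, 149 higher and 3 lower, of which 127 were shared. The difference between ages had 1 gene in edgeR under 4 settings and 30 in DESeq2. RLE scaling and a filter on the mean level gave 230 and 201 calls, and no filter 240. No paired analysis was possible because the titles give each library its own number and the replicate numbers only follow accession order.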

Other observations

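Of the 228 genes called higher, 117 stand outside every gene list, some of which are among the 20 largest increases (Ly9, Hcar2, Gpr65, St14, Bcl2a1b and Cxcl5); the others named here were chosen after their values were seen. They are given gene by gene, and how many other members of their families were tested without a call was not counted. Ly9, a surface receptor of the SLAM family, was at 0.244 to 0.369 CPM in wild type and 2.43, 2.28 and 2.25 CPM in 5XFAD (log2 2.92 ± 0.31, edgeR adjusted p = 0.000117), Cd48 at 0.466 to 0.819 and 2.5 to 4.2 CPM (log2 2.34), Slamf9 at 0.698 to 1.47 and 4.13 to 4.44 CPM (log2 2.08) and Cd84 at 1.44 to 2.36 and 4.69 to 7.93 CPM (log2 1.83). Hcar2, the receptor for niacin and ketone bodies, was at 0.041 to 0.163 CPM and 2.54, 1.78 and 1.55 CPM (log2 4.21 ± 0.39, adjusted p = 4.03e-05), Gpr84, a fatty acid receptor, changed by log2 2.35, Gpr183, the oxysterol receptor, by 1.80, and Gpr65, a proton sensor at 1.21 CPM or less, by 2.72, with its call kept without only 1 of the 7 libraries. St14, a membrane serine protease, was at 0.447 to 0.572 and 3.62, 4.74 and 4.94 CPM (log2 3.10 ± 0.24), Mpeg1, a pore-forming protein of phagocytes, at 16.3 to 21.5 and 62.4 to 78.6 CPM (log2 1.91), and Bcl2a1b, a survival factor, at 0.698 to 0.983 and 5.42 to 6.61 CPM (log2 2.80). Cxcl5, a chemokine, reached 1.59 CPM at most (log2 2.71). Tgfbr2, a TGF-beta receptor chain, rose by log2 0.99 ± 0.13 and stayed called in all 17 other settings, and Slc14a1, the urea transporter, rose by 1.40 ± 0.14. Tgfbr1, the other chain, was called at log2 0.69 ± 0.14 but stayed so in 8 of the 17 settings and without only 2 of the 7 libraries.

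The transcript length assigned by the authors' quantifier also differed between the groups for some called genes. Igf1 was assigned 4353 to 5849 bases in wild type and 2250 to 2972 in 5XFAD, with no overlap, so its ratio of means was 2.5 in CPM and 4.63 in TPM. Abi3 went from 3657 to 4006 bases to 2376 to 3450, with ratios of 1.62 and 2.06. Lilrb4a was assigned longer transcripts in 5XFAD, 1528 to 1593 bases against 1142 to 1422, on few counts in wild type. Gm2000, a gene model, was called at 6 months (log2 1.45 ± 0.26, adjusted p = 0.0113) and had a log2 difference of -0.03 at 11 months. Mcm3, a DNA replication factor, was the only 1 of 14 proliferation genes called (log2 0.95 ± 0.16, adjusted p = 0.00517), and Mki67, a marker of dividing cells, was at 1.23 to 4.06 CPM in wild type and 7.63, 2.5 and 3.61 CPM in 5XFAD.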
